A study of Mus musculus with 4 samples.

Results

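The Hoxc cluster comprises 9 Hox genes on chromosome 15, Hoxc13, Hoxc12, Hoxc11, Hoxc10, Hoxc9, Hoxc8, Hoxc6, Hoxc5 and Hoxc4 in genomic order, all on the plus strand. These 9 were examined out of 21951 protein-coding genes. They were chosen by name, together with all H3K27me3 peaks in the span of the 9 genes extended by 10 kb on each side (chr15:102911103-103046852, mm10, 135.75 kb). The span held 50 of the 10223 peaks found with 500 erythro-myeloid progenitors (EMPs) and 15 of the 15282 peaks found with 15000 EMPs.

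EMPs are blood progenitors that arise from hemogenic endothelium in the yolk sac. They were isolated at embryonic day 10.5 from mice of the C57BL/6 background as cells positive for KIT, CD41 and CD16/32, and profiled by CUT&RUN, in which an antibody directs a nuclease to its target and the released DNA is sequenced. An H3K27me3 and an IgG library were made at each cell number, 1 library per group. The genotype label of all 4 gives Ezh2 fl/fl and Tie2-Cre next to the words wild type, which was taken to mean wild-type cells (Tie2-Cre is active in endothelium and the blood cells derived from it). No Ezh2-deficient library was analysed here. The cell number could not be told apart from the instrument, the read length (76 bp for 500 EMPs, 59 bp for 15000 EMPs), the amplification (17 and 16 PCR cycles) or the p-value limit of the peak caller (0.01 and 0.05), and the 500-EMP library was, per the study's reporting summary, sequenced less deeply and with a much lower alignment rate, so that it had far fewer aligned reads. Without replicates, each difference between the lists is a difference between 2 libraries with no replicate check. Of 8 EMP marker genes listed to check the label (Kit, Itga2b, Fcgr3, Fcgr2b, Runx1, Gfi1b, Spi1 and Myb), 0 had a peak within 3 kb of the start in either list. Of 5 endothelial markers, 0 had one with 500 EMPs and 1, Kdr, with 15000 EMPs. Of 4 primitive erythroid markers, 1, Hba-x, had one in both lists. Over all protein-coding genes the share was 9.94% with 500 EMPs and 16.9% with 15000 EMPs, and the marker sets are too small to be told apart from it. A repressive mark does not measure expression, so these counts do not establish the cell type.

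H3K27me3 is the trimethylation of lysine 27 of histone H3, placed by the Polycomb complex that contains Ezh2, and it marks genes that are held silent. Hox genes encode homeodomain transcription factors that give cells their position along the body axis. In most tissues the clusters are textbook Polycomb targets, and the mark tends to spread over whole clusters rather than to sit at single promoters. Within the Hoxc cluster the genes at the Hoxc13 end act in the posterior trunk, hindlimb, hair and nails, and those at the Hoxc4 end act in the neck and upper trunk.

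Over the Hoxc cluster the H3K27me3 peaks formed a nearly unbroken cover with 15000 EMPs and a cover broken by 49 gaps with 500 EMPs. The peaks covered 76.0% of the span with 500 EMPs (103204 bp) and 96.6% with 15000 EMPs (131200 bp). Only 6 stretches of 44 to 420 bp lay under neither list, together 1506 bp or 1.11% of the span. The 2 lists divided this cover differently, with a median peak width of 1365.5 bp for 500 EMPs (255 to 10151 bp) and 7378 bp for 15000 EMPs (2054 to 25335 bp).

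**Figure D1:**
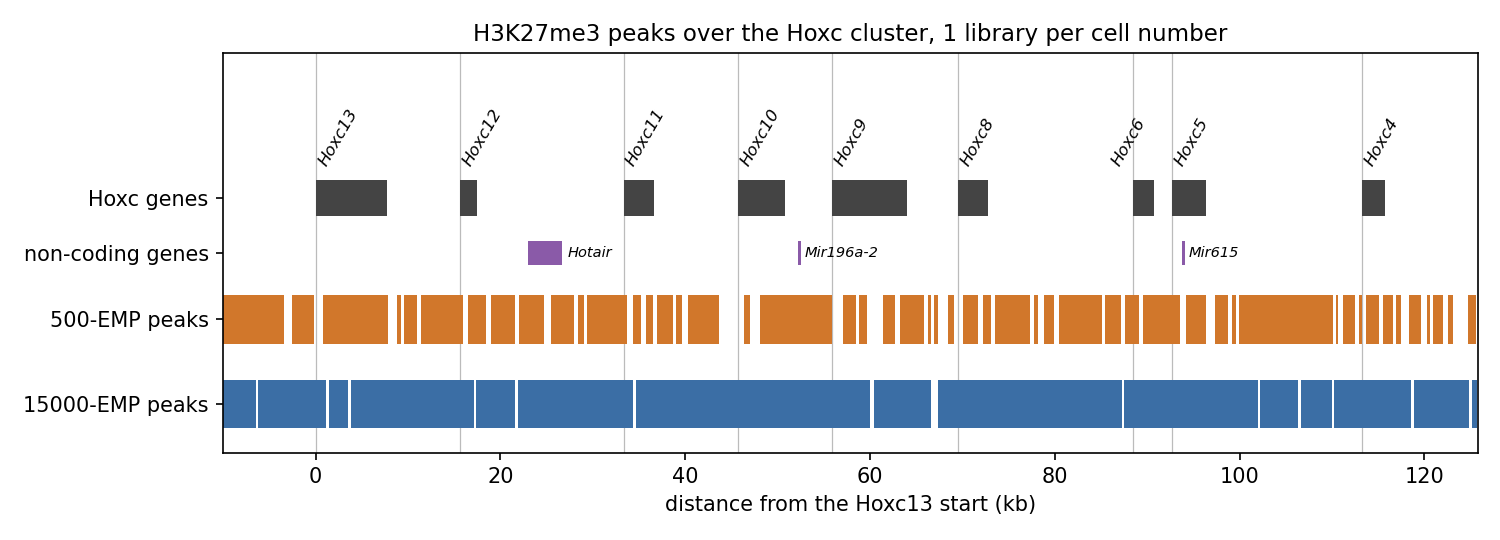
Map of the Hoxc cluster, with the distance from the Hoxc13 start in kb on the horizontal axis, principal transcripts as dark boxes, non-coding genes in purple (those of the miRNAs drawn wider than to scale), and the peaks of each library as bars; grey lines mark the gene starts. The 50 peaks with 500 EMPs are broken by many gaps, of which the longest, 2745 bp, lies at the Hoxc10 start, whereas the 15 peaks with 15000 EMPs leave 14 gaps of at most 687 bp.

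The sequence of the cluster differed in base composition between stretches called in both lists and the others. DNA under both lists had 47.5% GC and 1.73 CG dinucleotides per 100 bp. DNA under the 15000-EMP list alone had 51.3% GC and 2.81 CG per 100 bp, and the 6 stretches under neither had 54.6% GC and 3.39 CG per 100 bp. The 3044 bp under the 500-EMP list alone had 46.4% GC and 2.102 CG per 100 bp. Across all chromosomes DNA under both lists had 2.15 CG per 100 bp, DNA under the 15000-EMP list alone 2.41 and DNA under the 500-EMP list alone 1.87. To show what such stretches look like, 3 stretches of 200 bases without an annotated exon are printed from the plus strand of GRCm38 (the assembly of mm10), with each CG in capitals. The first is the richest in CG within the longest part called with 15000 EMPs alone, and the others are the richest in the span among DNA called in neither list and in both lists. Exons, the bases at gene starts and non-coding genes were left out of the search. CG reads the same on both strands.

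Called with 15000 EMPs alone, chr15:102965412-102965611, in the gap before the Hoxc10 start: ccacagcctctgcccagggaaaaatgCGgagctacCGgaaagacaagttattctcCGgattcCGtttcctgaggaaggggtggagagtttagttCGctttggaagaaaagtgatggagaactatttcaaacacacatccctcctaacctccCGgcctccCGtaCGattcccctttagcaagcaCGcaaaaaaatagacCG

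Called in neither list, chr15:102942760-102942959, between Hoxc12 and Hotair: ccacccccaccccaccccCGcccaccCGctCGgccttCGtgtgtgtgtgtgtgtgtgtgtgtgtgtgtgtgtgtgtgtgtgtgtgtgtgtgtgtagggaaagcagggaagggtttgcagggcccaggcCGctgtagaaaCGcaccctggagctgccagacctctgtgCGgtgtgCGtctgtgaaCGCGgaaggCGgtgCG

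Called in both lists, chr15:102921928-102922127, in the Hoxc13 intron: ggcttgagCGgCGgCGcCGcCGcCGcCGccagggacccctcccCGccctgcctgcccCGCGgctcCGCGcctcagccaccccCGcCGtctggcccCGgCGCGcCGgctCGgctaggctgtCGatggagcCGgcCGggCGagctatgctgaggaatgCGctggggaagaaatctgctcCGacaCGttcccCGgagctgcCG

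The first holds 10 CG, the second 12 and the third 28. Of the 678 consecutive 200-base stretches of the span, 79.5% held at least 1 CG and 12.7% held at least 10, with a median of 2. The stretch in the Hoxc13 intron was the richest in CG of the 3 and lay under a peak in both lists. The part of base composition in the difference between the lists was not tested.

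Every peak of either list in the span overlapped a peak of the other list, though few matched in extent. All 50 peaks with 500 EMPs shared at least 1 bp with a 15000-EMP peak (95% Wilson interval 92.9 to 100%, counting error only), and all 15 peaks with 15000 EMPs overlapped a 500-EMP peak (79.6 to 100%). The shares over the whole lists were 91.2% and 32.2%. When at least 50% of both peaks had to be shared, the shares in the span were 4% and 13.3%. With 15000 EMPs, the span held 10 peaks of more than 5 kb, which each overlapped 3 to 9 peaks of the 500-EMP list. Across the genome 99.0% of the 875 such peaks overlapped a 500-EMP peak, so an overlap as such did not set the Hoxc peaks apart. The median part of a wide peak covered in both lists was 74.5% at Hoxc and 38.4% across the genome. In base pairs, 76.3% of the bases under 15000-EMP peaks in the span were under 500-EMP peaks too, against 23.1% across the genome. The other Hox clusters also lay above the genome share, with 69.6% at Hoxa, 63.2% at Hoxd and 53.7% at Hoxb.

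The widest 500-EMP peak of the cluster measured 10151 bp (chr15:103021017-103031167) and lay between the principal transcripts of Hoxc5 and Hoxc4. It was the second widest of that list, whose 30 peaks of more than 5 kb included 4 in the span. The widest 15000-EMP peak of the cluster, 25335 bp (chr15:102955732-102981066), was the 6th of its list. It held the starts of Hoxc10 and Hoxc9 and exon sequence of Hoxc11.

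The gaps of each list were set against the peaks of the other, which covered 96.6% of the span with 15000 EMPs and 76.0% with 500 EMPs. The 500-EMP list had 49 gaps between its peaks in the span, with a median of 510 bp and a range of 311 to 2745 bp, and 43 of them lay wholly under a 15000-EMP peak. The other 6 were partly covered and 0 were left open. The 15000-EMP list had 14 gaps with a median of 292 bp and a range of 246 to 687 bp. Of these, 8 lay wholly under 500-EMP peaks, 3 partly and 3 not at all. Of the 4550 bp in these gaps, 3044 bp lay under 500-EMP peaks and 1506 bp under neither list. Whether the gaps of the lists coincided more or less often than their cover alone would give was not tested. Of the 49 gaps in the 500-EMP list, 8 were longer than 1 kb.

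The next question was how far the cover continued beyond the genes. Peaks of 1 list that lay within 1 kb of each other were joined into domains, and domains were ranked by length. With 15000 EMPs, 1 domain of 170.2 kb (chr15:102902212-103072403) held 22 peaks and all 9 Hoxc gene starts. It was the longest domain of the genome in that list, and the next, over Hoxa, measured 113 kb. With 500 EMPs, the longest domain of the genome also lay in the Hoxc cluster (chr15:102991200-103044174). It measured 53.0 kb, held the starts of Hoxc6, Hoxc5 and Hoxc4, and was followed by a domain of 36.1 kb over Hoxb13. Another 2 Hoxc domains of 34.8 and 25.7 kb stood 4th and 8th. When peaks within 3 kb were joined, the 500-EMP domain grew to 168 kb with 65 peaks and all 9 starts, and the 15000-EMP domain to 179 kb. Both were again the longest of their lists, before Hoxa domains of 71.0 and 131 kb. When peaks were joined within only 0.5 kb the longest Hoxc domain with 500 EMPs measured 14.7 kb and ranked 3rd.

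**Figure D2:**
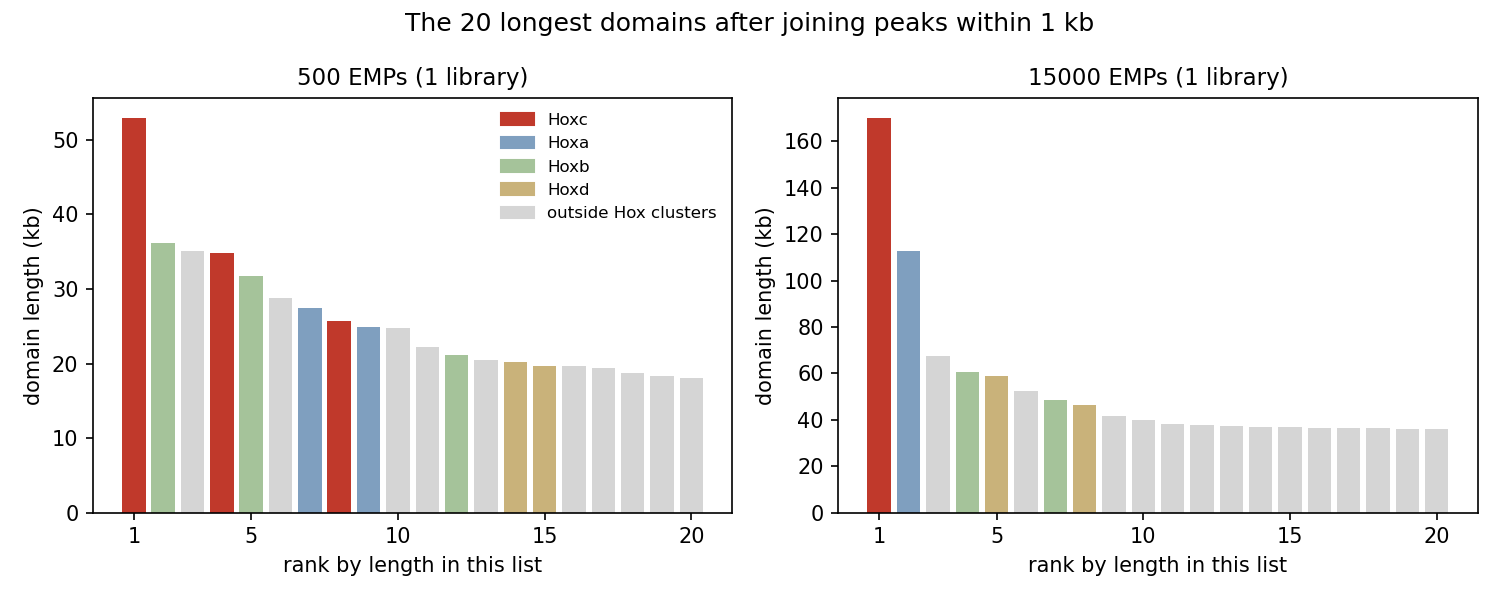
Bars give the length in kb (vertical axis) of the 20 longest domains of each list, ranked along the horizontal axis, after peaks within 1 kb of each other had been joined; red bars are Hoxc domains, the other colours the other Hox clusters and light grey all other places. The first bar is a Hoxc domain in both panels, 53.0 kb with 500 EMPs and 170.2 kb with 15000 EMPs, and the vertical scales differ.

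The 2 ends of the cluster were unlike. Before Hoxc13, the first 20 kb were covered to 72.8% with 500 EMPs and 88.2% with 15000 EMPs. The next 20 kb were covered to 3.02% and 15.5%, and between 40 and 100 kb from the Hoxc13 start no peak was found in either list. After the Hoxc4 end, 41.4% and 83.9% of the first 20 kb were covered, and 44.9% and 79.0% of the next 20 kb. The cover was 16.8% and 57.9% between 40 and 60 kb, 31.5% and 74.9% between 60 and 80 kb, and 9.12% and 32.3% between 80 and 100 kb. No protein-coding gene starts in the first 100 kb on either side. The nearest ones, Calcoco1 before Hoxc13 and Smug1, a DNA repair glycosylase, after Hoxc4, had 0 bp covered in the 6 kb around their starts in both lists. The same held for Atf7, Atp5g2, Cbx5 and Hnrnpa1, the next 2 genes on each side. Cbx5 encodes a heterochromatin protein and Hnrnpa1 a splicing factor.

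**Figure D3:**
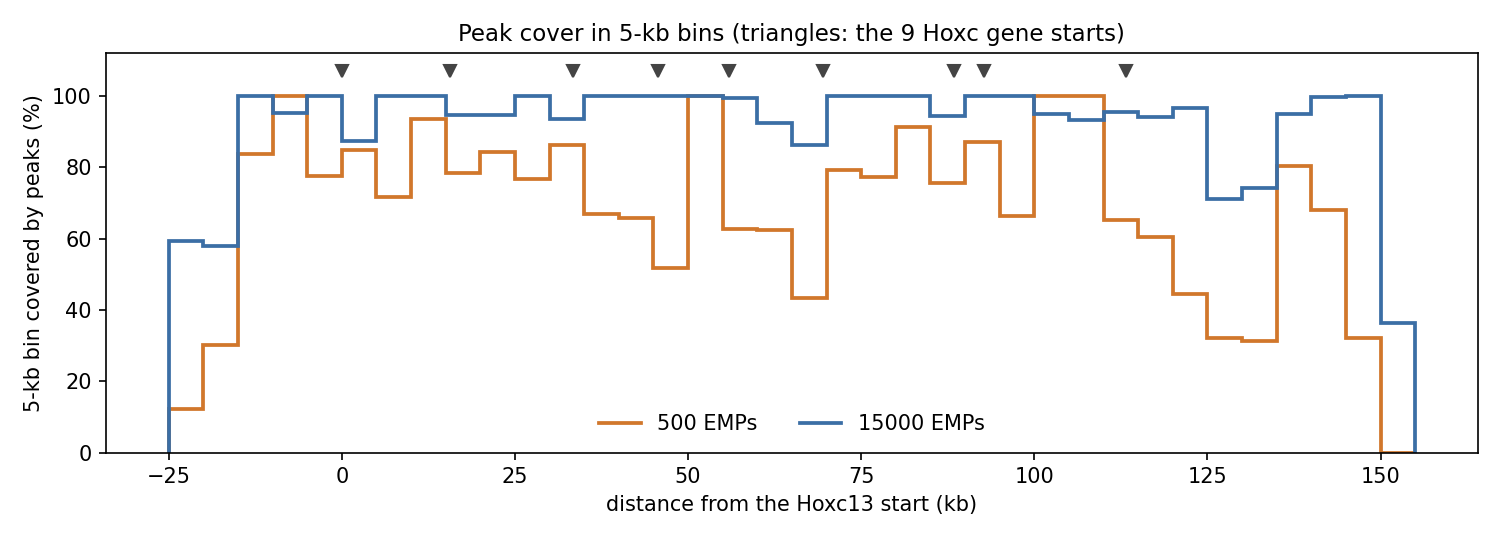
Share of each 5-kb bin covered by peaks (vertical axis, %) against the distance from the Hoxc13 start (horizontal axis, kb), 1 line per library; triangles mark the 9 gene starts. The 15000-EMP line lies between 86.3 and 100% in every bin from 0 to 125 kb, and the 500-EMP line between 43.5 and 100%.

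At the gene starts the lists differed. Each start was taken from the principal transcript of GENCODE vM21. All 9 Hoxc starts had a peak within 3 kb in both lists, where 9.94% of all protein-coding genes had one with 500 EMPs and 16.9% with 15000 EMPs. All 9 starts lay inside a 15000-EMP peak (8.63% of all genes), but only 4, those of Hoxc12, Hoxc11, Hoxc6 and Hoxc5, lay inside a 500-EMP peak (1.26% of all genes). The other 5, Hoxc13, Hoxc10, Hoxc9, Hoxc8 and Hoxc4, lay in gaps with 500-EMP peaks within 3 kb on both sides. Such gaps were common. Among the 903 genes that had 500-EMP peaks within 3 kb on both sides of the start and the start inside a 15000-EMP peak, 71.5% had the start in a gap, and the share at Hoxc, 5 of 9, was not above this. Of the other 30 Hox genes, 19 met the same conditions and 9 of them had the start in a gap.

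**Figure D4:**
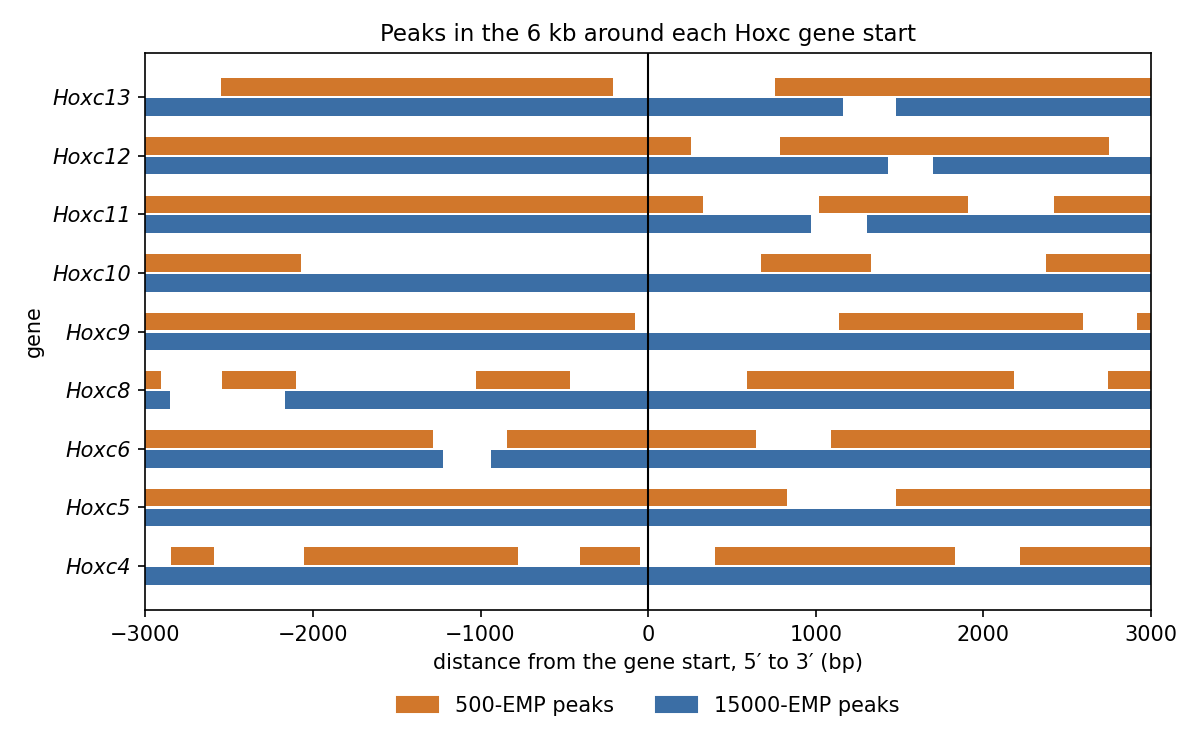
Peaks of both lists in the 6 kb around each Hoxc gene start, with the distance from the start in bp on the horizontal axis and 1 row per gene; the vertical line is the start. The line crosses a 15000-EMP bar in all 9 rows and a 500-EMP bar in 4, Hoxc12, Hoxc11, Hoxc6 and Hoxc5.

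Among the posterior members, Hoxc13, a regulator of hair and nail growth, starts at 102921103. Its start lay in a 500-EMP gap of 970 bp, 211 bp after a peak of 2338 bp and 760 bp before a peak of 7045 bp. Of the 6 kb around it, 76.3% was covered with 500 EMPs and 94.7% with 15000 EMPs.

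Hoxc12 starts at 102936757, under a 500-EMP peak of 4564 bp and a 15000-EMP peak of 13235 bp. The 6 kb were covered to 87.0% and 95.5%. Hoxc11, which acts with its paralogues in the hindlimb, starts at 102954427 under peaks of 4256 bp and 12422 bp, and 80.0% and 94.5% of its 6 kb were covered. In both genes the 3 kb before the start were covered completely in both lists, and the gaps fell after the start.

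Hoxc10, which is known for lumbar motor neurons and the hindlimb, had the lowest cover of the 9 with 500 EMPs and complete cover with 15000 EMPs, at 36.9% and 100% of its 6 kb. Its start at 102966796 lay in the longest 500-EMP gap of the cluster (chr15:102964723-102967467, 2745 bp), 672 bp before the next peak. The gap lay wholly inside the 25335-bp peak of the other list. It is the gap from which the first printed stretch was taken.

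Hoxc9, which sets thoracic identity in motor neurons, starts at 102977032, only 78 bp after the end of a 500-EMP peak of 7783 bp. The 3 kb before the start were covered to 97.4% with 500 EMPs and the 3 kb after it to 51.3%. None of its coding sequence lay under a 500-EMP peak, and all of it lay under a 15000-EMP peak. Hoxc9 was the only one of the 9 with a coding sequence wholly outside the 500-EMP list.

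In the anterior part, Hoxc8, which shapes the thoracic skeleton, starts at 102990607 in a 500-EMP gap of 1058 bp. Its 6 kb were covered to 49.2% with 500 EMPs by 5 peaks and to 88.6% with 15000 EMPs, the lowest value of the 9 in that list. Hoxc6 starts at 103009573 and Hoxc5 at 103013815, and both starts lay under peaks of both lists. Their 6 kb were covered to 85.1% and 95.2% at Hoxc6 and to 89.2% and 100% at Hoxc5. The coding sequence of Hoxc6 was covered completely in both lists, and that of Hoxc5 to 90.4% with 500 EMPs.

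Hoxc4, which is also known from lymphoid cells, starts at 103034395 in a short 500-EMP gap of 442 bp, 46 bp after a peak of 361 bp. Its 6 kb were covered to 68.3% with 500 EMPs by 5 peaks and to 100% by a single 15000-EMP peak of 8330 bp. Its coding sequence was covered to 91.3% with 500 EMPs.

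Over the 9 genes, the median cover of the 6 kb was 76.3% with 500 EMPs and 95.5% with 15000 EMPs, and the median over all protein-coding genes was 0% in both. The 6 kb were covered completely with 15000 EMPs at 4 of the 9, Hoxc10, Hoxc9, Hoxc5 and Hoxc4, where 0.656% of all genes reached this. The order of the members was not the same in the lists, since Hoxc10 was lowest in the first and among the highest in the second. No replicate spread exists against which neighbours in this order could be compared. The cover of the 6 kb with 500 EMPs had nearly the same median at the posterior members, Hoxc9 to Hoxc13 (76.3%), and the anterior ones, Hoxc4 to Hoxc8 (76.7%). The coding sequence was covered less with 500 EMPs at the posterior members than at the anterior ones, with a median of 31.4% over Hoxc9 to Hoxc13 (0 to 47.4%) and 90.8% over Hoxc4 to Hoxc8 (33.9 to 100%). With 15000 EMPs both medians were 100%, with Hoxc12 lowest at 78.5%. Across the span, 65.2% of the exon bases and 76.2% of the intron bases of the principal transcripts and 78.0% of all other bases were covered with 500 EMPs. With 15000 EMPs the shares were 96.8%, 94.4% and 97.1%.

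The base composition was also measured in the 300 bp around each start. The 4 starts under a 500-EMP peak had a GC content of 50 to 56.0% (median 51.5%), and the 5 starts in gaps 54.7 to 68.7% (median 60.7%). The ranges overlapped. Hoxc8 had the highest GC content, 68.7% with 28 CG, and Hoxc4 the fewest CG, 6, although both starts lay in gaps. Across the genome, among genes with the start under a 15000-EMP peak, the median GC content was 58.7% for the 258 starts under a 500-EMP peak and 64.3% for the 1637 others.

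Against the other clusters, the Hoxc span was the most covered in both lists. The covered shares with 500 EMPs were 66.2% for Hoxa, 53.1% for Hoxd and 34.0% for Hoxb, each with 10 kb on either side, against 76.0% for Hoxc. With 15000 EMPs they were 91.1%, 81.7% and 59.2%, against 96.6%. The Hoxb span was the longest, at 193.9 kb against 135.75 kb for Hoxc. Its shares were lowered by long gaps, the longest 39.3 kb with 500 EMPs and 17.2 kb with 15000 EMPs. The share of 15000-EMP peaks with a 500-EMP counterpart was 100% at Hoxc, 80.0% at Hoxa (16 of 20), 79.2% at Hoxd (19 of 24) and 51.9% at Hoxb (28 of 54). The Wilson intervals were 79.6 to 100% for Hoxc, 58.4 to 91.9% for Hoxa, 59.5 to 90.8% for Hoxd and 38.9 to 64.6% for Hoxb. They treat neighbouring peaks of 1 library as independent, so they are no test between clusters. The peaks also differed in width, which bears on an overlap of at least 1 bp. The median width with 15000 EMPs was 7378 bp at Hoxc, 4473.5 bp at Hoxa, 3673 bp at Hoxd and 913 bp at Hoxb. The part of peak width in these shares was not tested. At the gene starts, the median cover with 500 EMPs was 76.3% for Hoxc, 70.4% for Hoxa, 54.3% for Hoxd and 51.0% for Hoxb. With 15000 EMPs the medians were closer for Hoxc, Hoxa and Hoxd, at 95.5%, 94.4% and 92.9%, with 79.8% for Hoxb. The lowest Hoxc gene, Hoxc10, had 36.9%, below the lowest Hoxd gene, Hoxd1, with 42.4%, and above the lowest Hoxb gene, Hoxb2, with 7.70% and the lowest Hoxa gene, Hoxa9, with 0%. Hoxc has no genes of paralogue groups 1 to 3. In the other clusters these groups ranged from 7.70% at Hoxb2 to 89.6% at Hoxa3, the highest value of the 39 genes. Among the paralogue groups that Hoxc has, Hoxc5, Hoxc6, Hoxc11 and Hoxc12 had the highest 500-EMP value of their group. In the other groups the highest value was not at the Hoxc gene but at Hoxa4 (69.6%), Hoxb8 (64.4%), Hoxb9 (85.1%), Hoxd10 (79.6%) and Hoxb13 (81.1%).

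**Figure D5:**
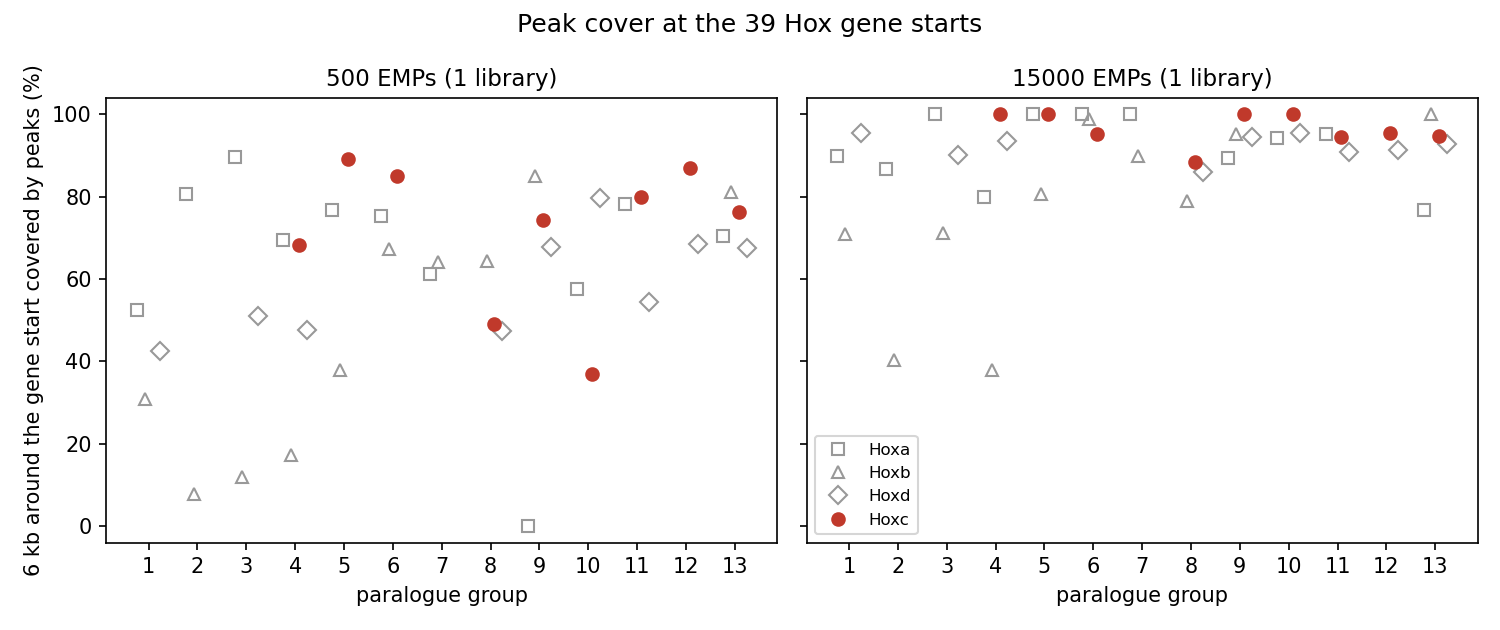
Share of the 6 kb around the start covered by peaks (vertical axis, %) for the 39 Hox genes by paralogue group (horizontal axis), with 1 panel per library, Hoxc genes as filled red circles and the other clusters as open grey symbols. With 500 EMPs the Hoxc genes lie between 36.9 and 89.2% and the other 30 between 0 and 89.6%, and with 15000 EMPs between 88.6 and 100% and between 37.9 and 100%.

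The cluster also holds non-coding genes. Hotair, an antisense long non-coding RNA known for its proposed link to Polycomb, lies between Hoxc12 and Hoxc11 (chr15:102944062-102947730, minus strand). Peaks covered 78.5% of it with 500 EMPs and all of it with 15000 EMPs, and its start lay inside a peak in both. Mir196a-2, upstream of Hoxc9 (chr15:102973350-102973434), lay wholly under a peak in both lists. Mir615, in an intron of Hoxc5 (chr15:103014910-103015001), lay under a 15000-EMP peak and 266 bp outside the nearest 500-EMP peak.

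The mature miRNAs of these 2 genes are shown because the first belongs to a family encoded in 3 of the Hox clusters and known to target Hox transcripts. Sequences are from RefSeq (GRCm38), with the seed, bases 2 to 8, in capitals. The member of the Hoxa cluster is added to show the shared seed.

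miR-196a-5p, Hoxc (Mir196a-2) and Hoxb (Mir196a-1): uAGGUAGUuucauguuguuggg

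miR-196b-5p, Hoxa (Mir196b): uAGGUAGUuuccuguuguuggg

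miR-615-3p, Hoxc (Mir615): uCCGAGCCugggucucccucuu

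The seed AGGUAGU is the same in all 3 miR-196 genes. Each of the 3 lay under a 15000-EMP peak, and only the Hoxc copy also lay under a 500-EMP peak. The mature sequences from Mir196a-1 and Mir196b lay 12 bp and 940 bp from the nearest one. The seed of miR-615-3p is a different one.

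The names that the annotated tables give to these peaks depend on the transcript chosen as the gene start. The tables listed 64 rows for the 9 genes with 500 EMPs and 34 with 15000 EMPs, of which 33 and 15 had a distance of at most 3 kb. For many peaks inside or downstream of a gene this distance is to the nearer end of the gene and not to its start. Every one of the 9 genes had at least 1 such row in both tables, as did 9.77% and 16.8% of protein-coding genes. Hoxc4 alone had 27 rows and 13 rows, up to 45.9 kb and 44.6 kb away, 18 and 9 of them downstream of the gene. The table starts correspond to the outermost transcripts, which lie 46.4 kb before the principal start for Hoxc5, 15.5 kb for Hoxc4 and 11.3 kb for Hoxc6. The outermost start of Hoxc5 thus lies inside Hoxc10, and the Hoxc5 rows (2 and 1) refer to peaks there. The peaks across the principal starts of Hoxc6 and Hoxc5 carried other names, Mir615 with 500 EMPs and Mir615 and Hoxc4 with 15000 EMPs. A gene list made from the tables holds all 9 Hoxc genes either way.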

How the data were processed

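The CUT&RUN libraries were processed by the authors, who aligned reads to mm10 with Bowtie2 2.2.1 and called broad peaks per library with MACS2 2.1.2 against IgG, at p-value limits of 0.01 (500 EMPs) and 0.05 (15000 EMPs). In the reporting summary the commands listed under the 2 limits name swapped libraries, and lists were taken as labelled. Processing notes also name SAMtools 1.9 and deepTools 3.5.1, and peaks were annotated with ChIPpeakAnno. The deposited files used here hold peak positions and annotations, with no score, height or count, so depth per library is unknown from them. Such positions are called present or absent. The 2 IgG libraries were not used here except as the authors' background.

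Peaks were compared in Python 3.11.15 by overlap of at least 1 bp on GRCm38 with GENCODE vM21. The overlap and distance calculations were tested on simulated data. Gene starts are those of the principal transcript, and ends are those of the peak lists. Intervals are 95% Wilson intervals. They cover counting error only and treat neighbouring peaks as independent. No test between cell numbers was possible with 1 library per group. The members, lists and comparisons were chosen with earlier results of these data known. All 9 members are described, and other genes are named as neighbours, Hox genes or markers. Alternatives were the flank, the joining distance, the overlap rule, the distance limit, the start and the shortest peaks.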

Additional observations from a re-analysis of the deposited data

How the results depend on the processing

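No paired analysis was possible because each group had 1 library. Recomputing 41 values gave 145 alternative values, of which 125 stayed within 1.5 times the main value (shares of peaks: within its 95% Wilson interval) and 20 did not. Many of the 125 could not move, so these counts are no measure of robustness. Leaving out the shortest peaks removed only those of the smallest width (137 and 171 bp), and the narrowest peaks in the span measured 255 and 2054 bp. A cover of 96.6% could not rise to 1.5 times its value. The number of peaks in the span fell from 50 to 9 with 500 EMPs and from 15 to 1 with 15000 EMPs after joining within 1 kb, was 1 in both after joining within 3 kb, and was 29 with 15000 EMPs for a flank of 50 kb. When at least 50% of both peaks had to be shared, the share with a counterpart was 4% for 500-EMP peaks and 13.3% for 15000-EMP peaks in the span. This follows from the lists dividing the cover into pieces of unlike width. The settings for the length and rank of the joined domain were chosen after seeing the data. The longest Hoxc domain with 500 EMPs measured 10151 bp as deposited (rank 2), 14727 bp joined within 0.5 kb (rank 3), 80589 bp within 2 kb and 167534 bp within 3 kb and within 5 kb. With 15000 EMPs it measured 25335 bp as deposited (rank 6) and 84463 bp within 0.5 kb. Of 54 values for single genes 3 moved, all with 500 EMPs, namely Hoxc10 (16.4%) and Hoxc9 (46.1%) in a window of 2 kb and Hoxc5 (36.9%) at its outermost start. The outermost start is also the principal start of Hoxc13, Hoxc12, Hoxc11, Hoxc10 and Hoxc8, so their values could not move under that setting.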
